A study of Mus musculus with 6 samples.

Results

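Kinesins are motor proteins that use ATP to move along microtubules or to take their ends apart. They were examined here as a gene family in cultures labelled as neonatal mouse cardiomyocytes. Genes were taken by name, as protein-coding genes of the annotation GENCODE M21 whose symbol is Kif with a number and at most one letter a to c, or Kifc with a digit. The rule matched 41 genes, and 39 of them were among the 18951 genes of the count table. By known role these were 12 mitotic, 11 transport, 10 ciliary and 6 other kinesins. Kif2b and Kif12 were not analysed here.

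Primary heart cells of postnatal day 1 C57BL/6 mice were transfected with an siRNA against Rbm22, a splicing factor gene (si-Rbm22, 3 libraries), or with a scrambled siRNA (si-Control, 3 libraries), and were cultured for 48 hours. No group was left without transfection. The protocol calls the 3 samples of a group biological replicates, without saying whether each came from its own isolation. All p-values therefore measure the spread between these samples. Libraries held 34269042 to 37344860 reads each.

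Mitotic kinesins build and move the spindle, pull or push chromosomes along it and organise the midzone where the cell divides. Transport kinesins carry vesicles, mitochondria and RNA towards the growing ends of microtubules, mostly away from the cell centre. A smaller set works in or at the base of the cilium, where the heterotrimeric motor of Kif3a, Kif3b and KAP3 moves cargo along the axoneme. Heart muscle cells still divide around birth and largely stop soon after.

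The protocol states that cells were stained for cardiac troponin T and used at a purity above 97.5%, but the 3 libraries labelled si-Control went against their label as cardiomyocytes. Levels are given as CPM, read counts per 1000000 reads of the library total after TMM scaling, which aligns the libraries on the bulk of their genes. Summed over 12 cardiomyocyte markers, the level was 40.6 to 46.4 CPM in the si-Control-labelled libraries, against 24100 to 37900 CPM in si-Rbm22. 6 of these markers (Mybpc3, Myl2, Myl3, Myl7, Nppa and Pln) had no read in any si-Control-labelled library. Endothelial markers summed to 6.29 ± 0.268 against 422.8 ± 25.8 CPM, macrophage markers to 2.54 ± 0.713 against 81.0 ± 7.09 CPM, and epicardial markers to 52.2 ± 1.78 against 2445 ± 131 CPM (mean ± SD, n = 3 and 3 throughout). Skeletal muscle precursor markers went the other way: all 6 tested genes of 8 were lower in si-Rbm22, and Myod1, Myf5 and Cdh15 had no read there. These and Myog and Mymk, near 0 in si-Rbm22, could enter the test only as lower. The sum of the 8 markers, 865.7 ± 42.1 against 448.8 ± 80.2 CPM, is dominated by Des (633 against 449 CPM), which cardiomyocytes also express. Fibroblast markers summed to 22600 ± 937 against 5851 ± 113 CPM, mostly through the collagen genes Col1a1, Col1a2 and Col3a1. Of the 10 fibroblast markers 6 fell, 3 rose (Tcf21, Thy1 and Dcn) and Lum did not pass. Tcf21 and Thy1 had 0 and 5 reads in the si-Control-labelled libraries and could enter the test only as higher. The makeup of the cultures thus moved with the siRNA label in all 6 libraries, and its part in each result below was not tested. In bulk RNA, fewer cells of a type and less RNA per cell cannot be told apart.

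Rbm22, the targeted gene, stood at 22, 25.2 and 22.3 CPM in the si-Control-labelled libraries and at 14.6, 12.9 and 13.1 CPM in si-Rbm22. The groups did not overlap, and the log2 fold change was -0.78 (SE 0.0973, adjusted p = 4.22e-06 by edgeR). Log2 fold changes are si-Rbm22 over the si-Control-labelled libraries, and adjusted p is the Benjamini-Hochberg value of edgeR's quasi-likelihood test over all 14621 genes tested. A gene passed at an adjusted p under 0.05, which 82% of all tested genes did, 43.1% as higher and 38.9% as lower in si-Rbm22.

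The mitotic kinesins alone all moved in the same direction. All 12 passed the test as lower in si-Rbm22, where 38.9% of all tested genes did so. With Kif2a counted as mitotic, that group had 1 rise. Of 11 transport kinesins 6 rose and 4 fell, and of 9 tested ciliary kinesins 3 rose and 6 fell. Among all tested genes 43.1% were higher and 38.9% lower. The other 5 tested kinesins gave 3 rises and 2 falls, of which the rises of Kif2a and Kif21a were marginal. In all, 36 of 37 tested kinesins passed, and the values of the groups did not overlap for 34 of the 37, against 84.2% of all tested genes. Kif27 and Kif28 were too low to be tested. Kif1a, Kif17, Kif19a and Kif26a reached the low-count filter in si-Rbm22 libraries only, so that they could enter the test only as higher there.

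Median log2 fold changes were -1.17 for the mitotic, 0.35 for the transport, -0.70 for the ciliary and 0.19 for the other kinesins, beside 0.05 for all genes tested. A fall of at least 2-fold was seen in 7 of 12 mitotic kinesins and in 18.7% of all tested genes. Transport kinesins had 3 members at least 2-fold higher and 3 at least 2-fold lower, with 24.4% and 18.7% of all tested genes as background. The 3 higher ones include Kif1a, whose direction was set by the filter.

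**Figure D1:**
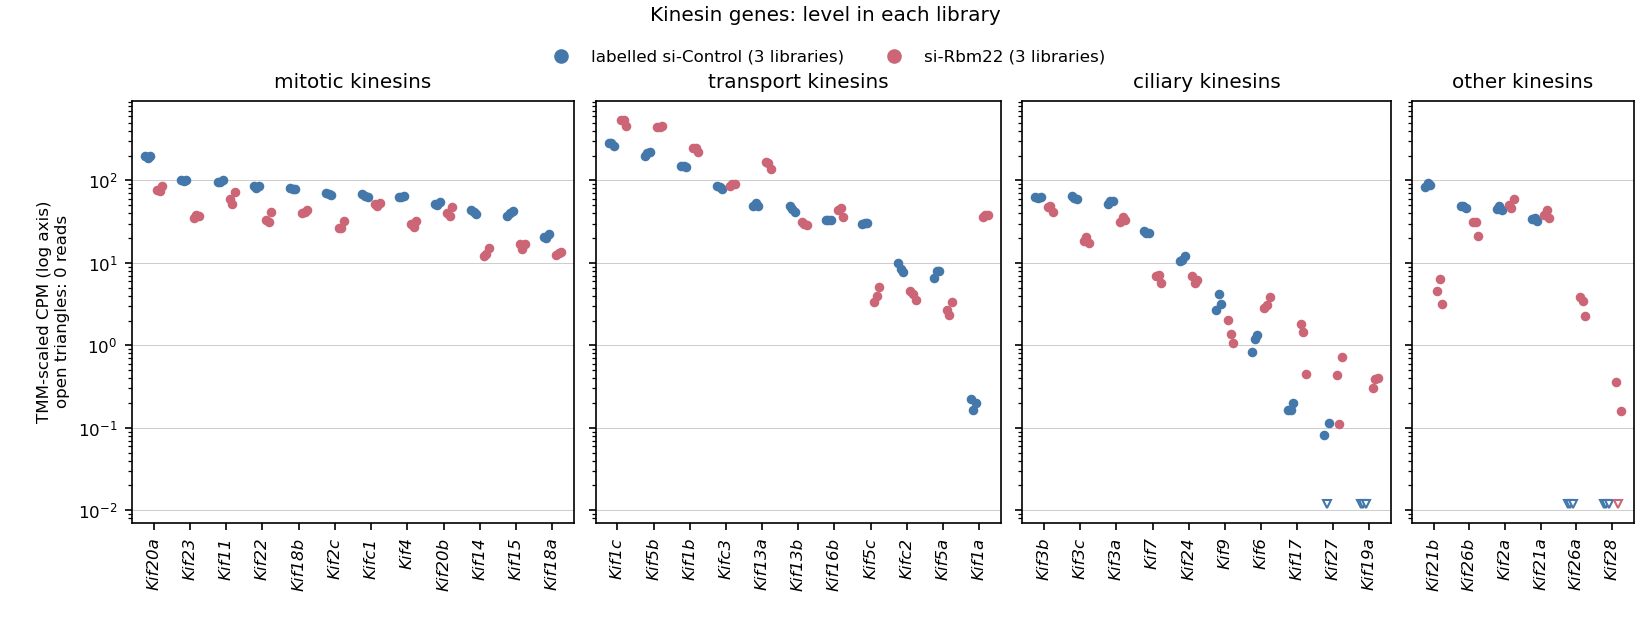
Level of each kinesin gene in each library, in TMM-scaled CPM on a log axis; each point is 1 library, blue for those labelled si-Control and red for si-Rbm22, and open triangles mark 0 reads. Red points lie below blue ones for all 12 mitotic kinesins, whereas the transport panel holds genes on either side, from Kif1a (0.165 to 0.221 against 35.6 to 38.3 CPM) to Kif5c (29.8 to 30.2 against 3.39 to 5.14 CPM).

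Many late cell cycle genes share short promoter elements, among them the cell cycle genes homology region (CHR), which is bound by the DREAM and MYB-MuvB complexes, and the CCAAT box, which is bound by NF-Y. Promoter windows from RefSeq (GRCm38.p6, 250 bases before to 50 after the transcription start) were matched by symbol for 30 of the 39 kinesins. Without a window were the mitotic Kif20a and the transport kinesins Kif5a, Kif5b, Kif13b, Kifc2 and Kifc3. The ciliary Kif19a and, of the other kinesins, Kif21b and Kif28 had none either. The first 6 sequences below were picked from mitotic kinesins with a CHR, a CCAAT box or an E2F element in the part shown. The last 2 are transport kinesins with a large rise and a large fall. Each runs 5′ to 3′ on the strand of the gene, from 80 bases before to 10 bases after the start, and capitals mark matches to a CHR (TTTGAA, or TTCAAA on the opposite strand), a CCAAT box (CCAAT or ATTGG) or an E2F element (GCGCCAAA, the opposite strand of TTTGGCGC).
Kif11, chr19:37376302-37376391, plus strand: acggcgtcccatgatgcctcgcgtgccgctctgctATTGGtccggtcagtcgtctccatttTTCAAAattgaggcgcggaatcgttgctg
Kif22, chr7:127042411-127042500, minus strand: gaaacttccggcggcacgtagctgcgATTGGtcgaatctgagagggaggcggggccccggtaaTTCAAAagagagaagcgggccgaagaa
Kif23, chr9:61946790-61946879, minus strand: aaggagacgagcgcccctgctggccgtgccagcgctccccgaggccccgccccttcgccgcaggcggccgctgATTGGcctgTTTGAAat
Kif18b, chr11:102925115-102925204, minus strand: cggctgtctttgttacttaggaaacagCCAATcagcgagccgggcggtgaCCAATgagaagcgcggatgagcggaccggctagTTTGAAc
Kif15, chr9:122951001-122951090, plus strand: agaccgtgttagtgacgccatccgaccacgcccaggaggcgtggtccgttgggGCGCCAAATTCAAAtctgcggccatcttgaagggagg
Kif18a, chr2:109280658-109280747, plus strand: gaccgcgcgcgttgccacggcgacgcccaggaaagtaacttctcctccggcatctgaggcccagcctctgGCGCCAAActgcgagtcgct
Kif13a, chr13:46929709-46929798, minus strand: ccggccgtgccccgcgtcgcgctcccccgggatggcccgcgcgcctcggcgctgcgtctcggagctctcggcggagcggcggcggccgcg
Kif5c, chr2:49619206-49619295, plus strand: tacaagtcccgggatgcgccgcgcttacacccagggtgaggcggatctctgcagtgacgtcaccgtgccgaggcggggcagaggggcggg
In Kif15 the CHR match directly follows the E2F match. Kif18a has the E2F match alone, and Kif13a and Kif5c, which are transport kinesins, have none of the 3 elements in the part shown. These examples were chosen and do not compare the roles. The transport kinesin Kif1a, which rose more than Kif13a, has a CHR match in that part of 1 window, whose start lies 19471 bases inside the GENCODE gene. The mitotic Kif14, Kif2c and Kif20b have no full match in that part.

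A CHR (TTTGAA or TTCGAA, either strand) lay in the windows of 10 of 11 mitotic kinesins, of 4 of 19 other kinesins with a window, and of 19.2% of all 32851 RefSeq windows. Kif18a was the mitotic member without it, and the 4 others were Kif1a, Kif24, Kif26b and Kif27. The match began between 30 bases before and 20 after the start in 8 mitotic kinesins (Kif4, Kif11, Kif15, Kif18b, Kif20b, Kif22, Kif23 and Kifc1), and besides these in Kif24 and Kif26b. A CCAAT box (CCAAT, either strand) was found in 7 of 11 mitotic windows, 7 of 19 others and 37.4% of all windows. CHR and CCAAT box occurred together in 7 of 11 mitotic, 2 of 9 ciliary, 1 of 4 other and 0 of 6 transport kinesins, and in 7.52% of all windows. The E2F element (TTTGGCGC or TTTCCCGC, either strand) was in 2 mitotic windows, those of Kif15 and Kif18a, and in 1.56% of all windows.

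These matches describe letters in a window and are not binding sites. RefSeq and GENCODE starts also differ for some genes. For Kif14 and Kif2c the RefSeq start lay 1505 and 3867 bases inside the GENCODE gene. With windows limited to starts within 500 bases of the GENCODE gene start, 8 of 9 mitotic and 2 of 17 other kinesins had a CHR.

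**Figure D2:**
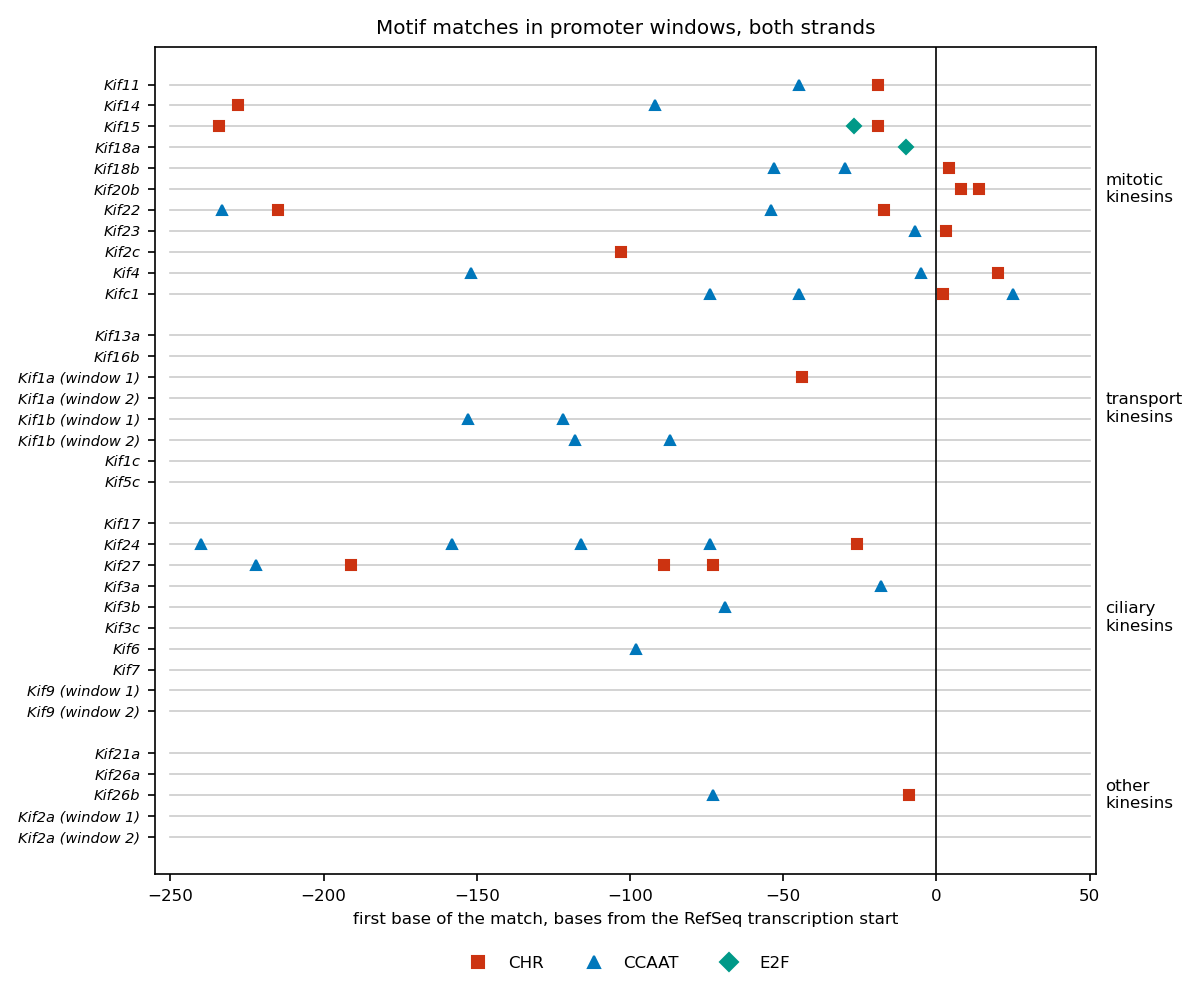
Position of each motif match in the promoter windows, by its first base in bases from the RefSeq transcription start (vertical line); each row is 1 window, grouped by role, with squares for CHR, triangles for CCAAT and diamonds for E2F. Squares gather near the start for 8 of the 11 mitotic kinesins, and the transport rows hold a single square, in 1 of the windows of Kif1a.

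The largest mitotic falls were those of Kif14 and Kif23, which act in the midzone and midbody of the dividing cell. Kif14, which works with citron kinase at the midbody, was at 43.4, 41.8 and 39.1 CPM in the si-Control-labelled libraries and at 12.2, 12.8 and 15.0 CPM in si-Rbm22. Kif23, the motor of the centralspindlin complex that bundles midzone microtubules, was at 99.9, 97.5 and 100 CPM against 35.2, 37.6 and 37.5 CPM. For Kif20a, which brings Aurora B to the midzone, the values were 196, 189 and 198 CPM against 76.0, 74.5 and 86.0 CPM. In each of the 3 genes every si-Rbm22 library lay far below every si-Control-labelled library. The log2 fold changes were -1.64 (SE 0.0920, adjusted p = 7.6e-10 by edgeR) for Kif14, -1.43 (SE 0.0590, adjusted p = 2.6e-11) for Kif23 and -1.30 (SE 0.0641, adjusted p = 1.81e-10) for Kif20a. Kif20a had the most reads per kb of exon of all kinesins in the si-Control-labelled libraries, 44.8 CPM per kb, and ranked 4th in si-Rbm22 with 18.2 CPM per kb.

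Some reads of Kif20a could belong to a neighbour, because 1271 bases of its exons overlap Cdc23 and the strand setting of the counting is unknown. Cdc23 itself fell by 0.40 on the log2 scale, less than Kif20a did. Kif4 shares 832 bases with Pdzd11, which fell by 0.67.

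Motors of chromosomes and spindle length also fell. Kif2c, a depolymerase that corrects wrong attachments of chromosomes, was at 70.4, 68.2 and 67.3 CPM in the si-Control-labelled libraries and at 26.6, 26.3 and 32.6 CPM in si-Rbm22, with no overlap (log2 fold change -1.27, SE 0.0825, adjusted p = 3.79e-09 by edgeR). Kif22, which pushes chromosome arms towards the spindle equator, averaged 83.5 ± 2.51 against 35.6 ± 5.62 CPM (log2 fold change -1.23). Kif4, a chromosome-bound motor that works with Prc1, averaged 63.5 ± 0.962 against 29.5 ± 2.52 CPM (log2 fold change -1.10). Kif18a and Kif18b, which act at microtubule plus ends, fell less, by 0.68 and 0.91 on the log2 scale. The mean of Kif18a went from 21 ± 1.3 to 13.1 ± 0.509 CPM and that of Kif18b from 79.2 ± 1.79 to 42.0 ± 2.07 CPM.

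Kif11 and Kif15 both push the spindle poles apart. Kif15 was at 37.1, 40.4 and 42.2 CPM in the si-Control-labelled libraries and at 16.8, 14.9 and 16.9 CPM in si-Rbm22 (log2 fold change -1.30, SE 0.0851). Kif11, the principal motor of pole separation, was at 96.4, 95.2 and 101 CPM against 59.5, 52 and 72.6 CPM (log2 fold change -0.67, SE 0.101). The si-Rbm22 values of Kif11 were more spread than those of Kif15, and neither gene's groups overlapped.

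The smallest falls in the mitotic set were those of Kifc1 and Kif20b. Kifc1, a minus-end-directed motor that focuses spindle poles, was at 67.9, 65.3 and 63.7 CPM in the si-Control-labelled libraries and at 52.3, 49.4 and 53.9 CPM in si-Rbm22 (log2 fold change -0.34, SE 0.0619, adjusted p = 1.53e-04 by edgeR). Kif20b, which acts late in cytokinesis, was at 51.2, 51.0 and 54.2 CPM against 40.6, 37.3 and 47.6 CPM (log2 fold change -0.32, SE 0.0841, adjusted p = 0.00309). The groups came close to each other in both genes without overlapping. Kifc1 is uncertain because of a close copy, Kifc5b, which the naming rule leaves out. Of the distinct 50-base words in GENCODE transcripts of Kifc1, 38.6% also occur in those of Kifc5b. Kifc5b fell from 39.6, 39.5 and 38.3 to 20.9, 21.4 and 21.6 CPM (log2 fold change -0.88, SE 0.0705).

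Summed over the 12 mitotic kinesins, the level was 912.3, 890.4 and 916.0 CPM in the si-Control-labelled libraries and 434.5, 418.5 and 493.7 CPM in si-Rbm22, a ratio of 0.495. Within si-Rbm22, replicate 3 had the highest value for 11 of the 12 members. The same library had the lowest sum of cardiomyocyte markers of its group, 24100 CPM beside 35890 and 37920 CPM.

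Partner genes of the spindle and of cytokinesis, a list of 30 that also holds the kinesin Cenpe, were lower as well. All 30 passed as lower in si-Rbm22, where 38.9% of all tested genes did so. The median log2 fold change was -1.05, in a range from -2.24 to -0.26. This list was chosen with earlier results of these data known. Cit, which encodes citron kinase, the midbody partner of Kif14, was at 71.1, 69.0 and 63.3 CPM in the si-Control-labelled libraries and at 15.3, 12.8 and 14.9 CPM in si-Rbm22 (log2 fold change -2.24, SE 0.0843, adjusted p = 9.97e-12 by edgeR). Ccnb2, a mitotic cyclin, fell from 95.5, 95.7 and 93.8 to 26.1, 26.9 and 31.8 CPM, by 1.75 on the log2 scale. Racgap1, the partner of Kif23 in centralspindlin, fell from 272, 268 and 260 to 79.5, 80.7 and 91.4 CPM, by 1.67. Cenpe, a kinesin of the kinetochore whose symbol falls outside the naming rule, fell by 0.69. The sum of the 12 mitotic kinesins was 0.229 ± 0.00158 of the sum of the 30 partners in the si-Control-labelled libraries and 0.231 ± 0.0062 of it in si-Rbm22, a difference smaller than the SD within si-Rbm22. The ratio of the mitotic to the transport sum, in contrast, was 1.02, 0.985 and 1.04 in the si-Control-labelled libraries and 0.270, 0.262 and 0.336 in si-Rbm22.

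**Figure D3:**
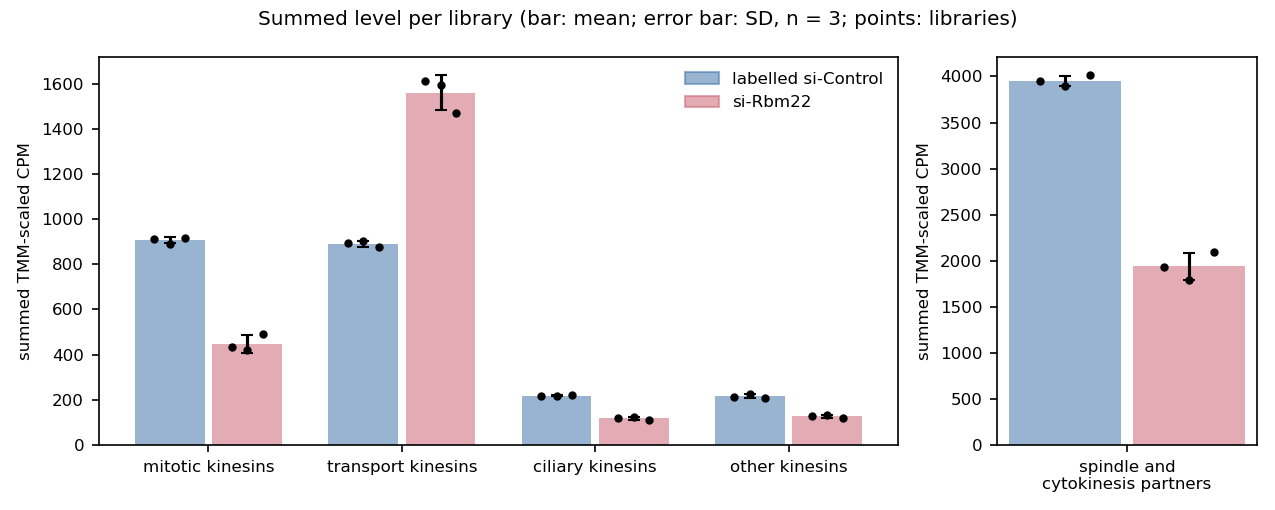
Summed TMM-scaled CPM of each kinesin group and of 30 spindle and cytokinesis partners; bars are means of 3 libraries, error bars are SD and points are libraries, with a separate axis for the partners. Mitotic kinesins (906.2 against 448.9 CPM) and their partners (3953 against 1941 CPM) are lower in si-Rbm22, and transport kinesins (891.7 against 1559 CPM) are higher.

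Transport kinesins had a higher sum in si-Rbm22, 1559 ± 77.1 against 891.7 ± 13.5 CPM, a ratio of 1.75. Kif1c, Kif5b, Kif13a and Kif1b made up most of the difference. Kif1c, a vesicle and mRNA carrier, was at 285, 281 and 263 CPM in the si-Control-labelled libraries and at 541, 534 and 452 CPM in si-Rbm22. Kif5b, the ubiquitous heavy chain of conventional kinesin, was at 197, 213 and 220 CPM against 448, 439 and 459 CPM. Kif13a, which moves recycling endosomes, was at 49.6, 53.2 and 48.3 CPM against 167, 163 and 136 CPM. In all 3 genes the si-Rbm22 libraries stood clear above the others. The log2 fold changes were 0.88 (SE 0.0717, adjusted p = 4.57e-08 by edgeR) for Kif1c, 1.10 (SE 0.0588, adjusted p = 4.65e-10) for Kif5b and 1.63 (SE 0.0795, adjusted p = 3.71e-10) for Kif13a. Per kb of exon, Kif1c ranked first of all kinesins in si-Rbm22, with 69.9 CPM per kb against 38.0 CPM per kb in the si-Control-labelled libraries. Kif1b, a carrier of mitochondria and of synaptic vesicle precursors, averaged 147 ± 1.3 against 237 ± 16.2 CPM (log2 fold change 0.69), and Kif16b, an endosome motor, 32.9 ± 0.192 against 42.0 ± 5.11 CPM (log2 fold change 0.35, adjusted p = 0.00172 by edgeR).

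The largest rise of a transport kinesin was that of Kif1a, the axonal carrier of synaptic and dense-core vesicles. The gene lies at chr1:93015464-93101951 (GRCm38, minus strand). It had 8, 6 and 7 reads in the si-Control-labelled libraries and 1304, 1380 and 1435 reads in si-Rbm22, or 0.221, 0.165 and 0.202 against 35.6, 38.3 and 38.2 CPM. The si-Control-labelled libraries were thus all close to 0. The ratio of the summed reads, scaled for depth, was 191 with a 95% counting interval of 125 to 309 (log2 fold change 7.55). Kif1a reached the low-count filter through si-Rbm22 alone, so that its direction in the test was set by the filter.

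Kif5c and Kif5a, the heavy chains enriched in neurons, fell. Kif5c (chr2:49619298-49774778, plus strand) was at 29.8, 30.2 and 30.1 CPM in the si-Control-labelled libraries and at 3.39, 3.95 and 5.14 CPM in si-Rbm22 (log2 fold change -2.85, SE 0.132, adjusted p = 9.04e-11 by edgeR). Kif5a was at 6.62, 7.91 and 8.07 CPM against 2.70, 2.36 and 3.38 CPM (log2 fold change -1.42, SE 0.188, adjusted p = 7.73e-06). The groups did not overlap in either gene. Kifc2, a minus-end-directed motor of neurons, fell from 10.0, 8.41 and 7.84 to 4.61, 4.2 and 3.52 CPM (log2 fold change -1.09, SE 0.167), and Kif13b from 48.4, 45.1 and 41.2 to 31.4, 30 and 28.5 CPM (log2 fold change -0.58, SE 0.0776). These motors therefore moved against Kif1a, which neurons also use. Markers of neurons went both ways too: of 8 genes, 6 were tested, 3 rose, 2 fell and 1 did not pass, at a median log2 fold change of 0.43. Stmn2 and Syt1 fell (log2 fold changes -4.17 and -5.47), Map2, Tubb3 and Nefl rose by 1.88, 0.41 and 5.16 on the log2 scale, and Rbfox3 and Snap25 were at or near 0 in every library. Nefl had 1 read in the si-Control-labelled libraries and 50 in si-Rbm22, and it could enter the test only as higher. The 8 markers summed to 58.0 to 60.8 CPM in the si-Control-labelled libraries and to 27.5 to 32.6 CPM in si-Rbm22. Stmn2 (28.0 against 1.56 CPM) and Syt1 (15.4 against 0.346 CPM) made up the difference.

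Kifc3 was the transport kinesin that did not pass, at 86.7, 84.2 and 79.6 CPM against 86.1, 90.2 and 89.8 CPM (log2 fold change 0.09, SE 0.0575, adjusted p = 0.171 by edgeR). Its groups overlapped. With stricter filters on low counts, which test fewer genes, the adjusted p was 0.0494 (at least 10 CPM in 3 libraries) or 0.0385 (at least 1 CPM in each library). Its reads are uncertain, since its exons overlap those of genes on the opposite strand.

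The shares of paralogues within their families differed between the groups by more than the SD of either. Per kb of exon, Kif5b made up 83.2% ± 0.459 of the summed level of Kif5a, Kif5b and Kif5c in the si-Control-labelled libraries and 98.3% ± 0.289 in si-Rbm22. Kif5c went from 13.4% ± 0.628 to 1.02% ± 0.197 and Kif5a from 3.41% ± 0.195 to 0.702% ± 0.111. The level of the 3 genes together was 31.6 ± 1.64 against 57.2 ± 1.47 CPM per kb. For Kif1a, Kif1b and Kif1c the sum was 46.4 ± 1.73 against 87.4 ± 7.65 CPM per kb, and Kif1c held most of it in both groups, with 81.9% ± 0.526 and 79.9% ± 0.846. Kif1a rose within that set from 0.0453% ± 0.00667 to 4.61% ± 0.547, so that it remained the smallest of the 3 despite its large fold change. Kif3b, which pairs with Kif3a as Kif3c also can, made up 57.1% ± 1.27 against 76.3% ± 0.971 of the sum of Kif3b and Kif3c.

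**Figure D4:**
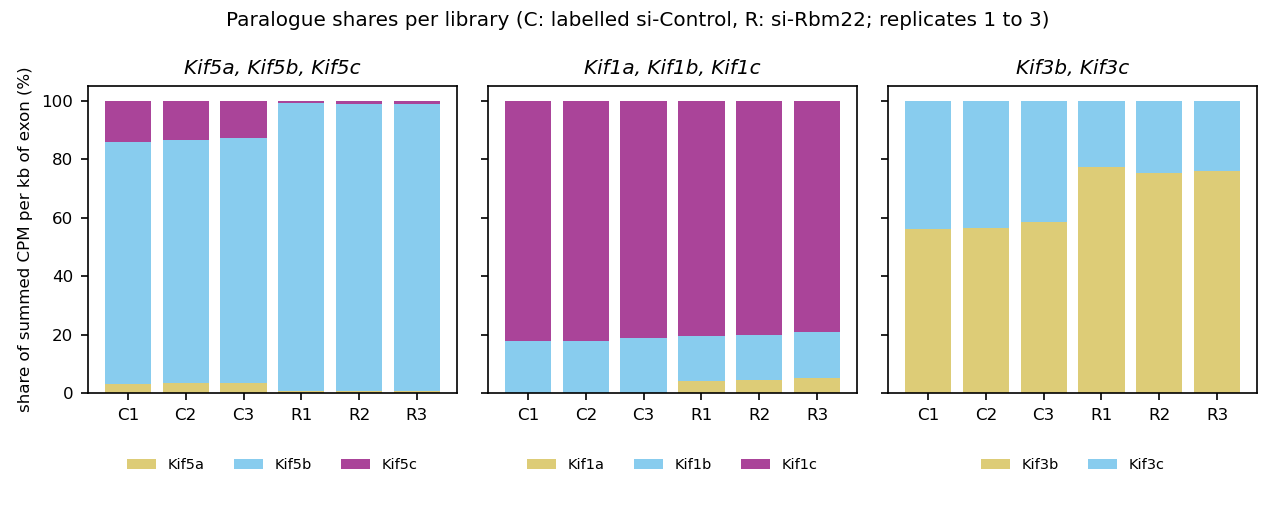
Share of each paralogue in the summed CPM per kb of exon, in percent, for each library (C1 to C3 labelled si-Control, R1 to R3 si-Rbm22). Kif5c shrinks from 12.8% to 14.0% of its set to 0.833% to 1.22%, and Kif1a appears in the si-Rbm22 libraries with 4.14% to 5.21%.

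Motors need light chains and adaptors to hold cargo. Of 26 tested genes of that list 18 rose, 7 fell and 1 did not pass, where 43.1% of all tested genes were higher and 38.9% lower, and the median log2 fold change was 0.34. The kinesin light chains differed among themselves: Klc1 did not pass (204, 201 and 200 against 198, 203 and 173 CPM, adjusted p = 0.294 by edgeR), Klc2 fell by 0.34 on the log2 scale, and Klc3 and Klc4 rose by 1.23 and 0.32. Trak2, which links Kif5 motors to mitochondria, rose from 97.2, 107 and 100 to 310, 294 and 247 CPM (log2 fold change 1.48, SE 0.0807). Hook1, an adaptor better known for dynein, stood at 0.221, 0.524 and 0.259 against 23.4, 24.0 and 25.7 CPM. Map7, a microtubule protein that recruits Kif5b, was at 0.11, 0.11 and 0.0288 against 13.3, 12.1 and 11 CPM, a ratio of 144 with a counting interval of 75.8 to 316. Both genes were close to 0 in the si-Control-labelled libraries. Map7 lay below the low-count filter of 0.276 CPM in each of them, so that it could enter the test only as higher. Hook1 reached that level in si-Control-labelled replicate 2 alone, so that its entry into the test also rested on si-Rbm22 libraries. Mapk8ip1, the JNK scaffold that Kif5 carries, fell from 68.8, 69.8 and 63.4 to 8.96, 9.47 and 8.92 CPM (log2 fold change -2.88, SE 0.0773). Plekhm1, a lysosome adaptor, fell from 51.6, 49.4 and 48.6 to 33.3, 34.9 and 33 CPM, by 0.56.

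Cytoplasmic dynein, the motor in the opposite direction, showed a median log2 fold change of -0.01 over 24 tested subunits and regulators, of which 6 rose, 10 fell and 8 did not pass. The 66.7% that passed compares with 82% of all tested genes, and the 10 falls of 24 are near the background of 38.9%. Dync1i1, the intermediate chain of neurons, was at 0, 0.0551 and 0.0864 CPM in the si-Control-labelled libraries and at 13.5, 13.3 and 12.7 CPM in si-Rbm22 (ratio 282, counting interval 121 to 871). It reached the low-count filter through si-Rbm22 alone and could enter the test only as higher. Bicd1, a cargo adaptor, rose from 4.61, 4.77 and 5.94 to 24.6, 25.8 and 25.1 CPM, by 2.30 on the log2 scale. Dync1li1, a light intermediate chain, rose from 61.1, 64.6 and 61.2 to 105, 103 and 96.2 CPM, by 0.70. None of these genes overlapped between groups. The light chain Dynlt3 fell from 148, 153 and 167 to 73.1, 80.4 and 86.3 CPM, by 0.97. Nde1, a dynein regulator, fell from 138 CPM in each library to 70.0, 67.3 and 76.3 CPM, by 0.95. Dctn2, a dynactin subunit, fell from 207, 210 and 201 to 131, 124 and 126 CPM, by 0.70.

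Of the tested ciliary kinesins, those with at least 0.785 CPM per kb of exon in the si-Control-labelled libraries fell, and those with at most 0.187 CPM per kb rose. For Kif17 and Kif19a that direction was set by the filter, which they reached through si-Rbm22 alone. The sum of the 10 genes was 218.1 ± 1.34 CPM in the si-Control-labelled libraries and 117.9 ± 7.74 CPM in si-Rbm22, a ratio of 0.54. Kif3a, the core subunit of the heterotrimeric motor and the ciliary member with the most reads per kb (15.3 against 9.37 CPM per kb), was at 52.3, 55.9 and 56.2 CPM against 31.6, 36.4 and 32.8 CPM. Kif3b, its usual partner, was at 62.4, 60.7 and 63.8 CPM against 47.6, 48.6 and 41.4 CPM, and Kif3c at 64.1, 61.1 and 59.4 CPM against 18.4, 20.8 and 17.2 CPM. No si-Rbm22 library reached the level of an si-Control-labelled library in these 3 genes. The log2 fold changes were -0.70 (SE 0.0723, adjusted p = 5.37e-07 by edgeR) for Kif3a, -0.44 (SE 0.0710, adjusted p = 5.06e-05) for Kif3b and -1.71 (SE 0.0810, adjusted p = 1.16e-10) for Kif3c. Kifap3, which encodes KAP3, the non-motor subunit, fell further than Kif3a and Kif3b, from 228, 229 and 237 to 65.4, 62.4 and 62.6 CPM (log2 fold change -1.87, SE 0.0552, adjusted p = 7.91e-13).

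Kif7, which sits at the cilium tip and controls Gli factors of the hedgehog pathway, was at 24.4, 23.1 and 23.3 CPM in the si-Control-labelled libraries and at 6.85, 7.08 and 5.75 CPM in si-Rbm22, without overlap (log2 fold change -1.85, SE 0.110, adjusted p = 1.47e-09 by edgeR). Kif3c and Kif7 are uncertain in that genes on the opposite strand, mostly antisense RNAs, overlap 3205 and 928 bases of their exons. Kif24, a centriolar kinesin that restrains cilium formation, fell from 10.5, 10.7 and 12.2 to 6.99, 5.67 and 6.15 CPM (log2 fold change -0.83, SE 0.137). Kif9, a motor of motile cilia, fell from 2.68, 4.24 and 3.20 to 2.02, 1.39 and 1.07 CPM (log2 fold change -1.18, SE 0.298).

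The 3 rises were of motors known from motile or sensory cilia, all at low levels. Kif6 was at 0.828, 1.21 and 1.33 CPM in the si-Control-labelled libraries and at 2.87, 3.08 and 3.81 CPM in si-Rbm22 (log2 fold change 1.53, SE 0.284, adjusted p = 1.78e-04 by edgeR). Kif17 was at 0.166, 0.165 and 0.202 CPM against 1.80, 1.44 and 0.453 CPM, a ratio of 6.92 with a counting interval of 4.26 to 11.8, and its si-Rbm22 replicate 3 stood well below replicates 1 and 2. Kif19a, which shortens motile cilia, had no read in the si-Control-labelled libraries and 0.300, 0.389 and 0.400 CPM in si-Rbm22, at least 13.0-fold higher when the group without reads is set at 3 counts. Kif27 was not tested and overlapped, at 0.0828, 0 and 0.115 CPM against 0.437, 0.111 and 0.719 CPM. Beside these rises, 8 markers of multiciliated cells summed to 2.12 to 3.43 CPM in the si-Control-labelled libraries and to 3.39 to 5.41 CPM in si-Rbm22. Of the 3 that were tested, Hydin and Rsph1 rose (0 and 56 reads against 127 and 214 in all) and Ccdc39 did not pass (1.72 against 1.05 CPM). Hydin reached the low-count filter through si-Rbm22 alone. Among the rest, Dnah9 and Tekt1 had no read in the former and 2 reads each in the latter, and Dnah11 had 58 reads against 10.

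Genes of intraflagellar transport, the cargo trains of Kif3 and of the ciliary dynein, gave 21 falls, 1 rise and 4 genes that did not pass among 26, and the median log2 fold change was -1. Dync2li1, a light intermediate chain of the ciliary dynein, fell from 34.1, 35.4 and 37.9 to 8.93, 8.86 and 8.52 CPM (log2 fold change -2.03, SE 0.0869). Ift57, of the anterograde trains, fell from 56.8, 56.8 and 57.6 to 14.9, 15.3 and 13.1 CPM, by 1.98 on the log2 scale. Ift122, of the retrograde trains, fell from 67.8, 66.3 and 67.4 to 22.4, 20.2 and 21.2 CPM, by 1.66. All 3 genes were clearly separated between groups. Ttc30a1 was the gene that rose, by 1.02, from 2.21, 3.09 and 3.08 to 5.00, 6.25 and 5.73 CPM. The share that fell was 21 of 26, with 38.9% as the background.

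In the hedgehog list, 9 of 12 tested genes fell, 2 rose and 1 did not pass, beside 38.9% lower and 43.1% higher among all tested genes, and the median log2 fold change was -1.07. Ptch1, the receptor and itself a target of the pathway, fell from 126, 128 and 126 to 29.2, 28.6 and 25.1 CPM (log2 fold change -2.20, SE 0.0674, adjusted p = 1.17e-12 by edgeR). The coreceptor Cdon fell from 366, 383 and 370 to 142, 142 and 143 CPM, by 1.39 on the log2 scale. Gas1, another coreceptor, fell from 646, 623 and 596 to 248, 247 and 256 CPM, by 1.31. Neither overlapped between groups. Gli2 rose by 2.93, from 1.05, 1.98 and 1.18 to 10.1, 11.4 and 10.6 CPM, and the ligand Dhh rose by 2.02, from 0.855, 0.22 and 0.461 to 2.65, 1.47 and 2.16 CPM. Gli1, a target and effector of the pathway, was at 6.57, 5.46 and 5.10 CPM against 0.137, 0.278 and 0.213 CPM.

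**Figure D5:**
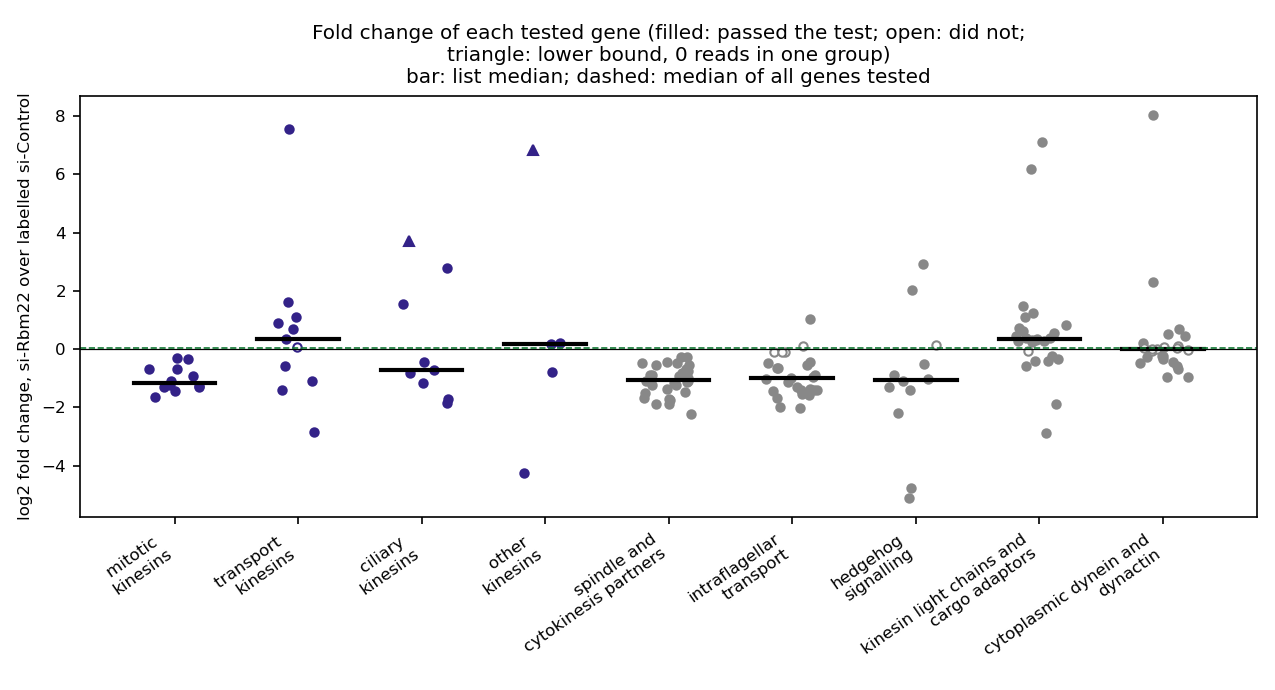
Log2 fold change of each tested gene, si-Rbm22 over the si-Control-labelled libraries, for the kinesin groups (blue) and 5 lists of related genes (grey); filled symbols passed the test, open ones did not, triangles are lower bounds for genes with 0 reads in a group, black bars are list medians and the dashed line is the median of all genes tested. Mitotic kinesins (median -1.17) and their partners (-1.05) lie below 0 throughout, and transport kinesins (0.35) reach from -2.85 to 7.55.

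The other kinesins held the largest fall of the family. Kif21b (chr1:136131389-136177998, plus strand), which regulates microtubule growth in neurons and lymphocytes, was at 84.4, 93.8 and 87.7 CPM in the si-Control-labelled libraries and at 4.56, 6.33 and 3.20 CPM in si-Rbm22, an 18.9-fold difference of the means (log2 fold change -4.24, SE 0.184, adjusted p = 3.6e-08 by edgeR). Its paralogue Kif21a was at 33.7, 34.9 and 32.0 CPM against 38.2, 43.5 and 34.7 CPM and overlapped between groups (log2 fold change 0.21, adjusted p = 0.0344). Kif21a and Kif21b together stood at 12.4 ± 0.547 against 6.38 ± 0.813 CPM per kb of exon.

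Kif26a and Kif26b are atypical kinesins without motor activity that act in signalling and cell adhesion, and they moved in opposite directions. Kif26a had no read in any si-Control-labelled library and 3.85, 3.44 and 2.26 CPM in si-Rbm22, at least 114-fold higher against 3 counts over the group. Kif26b was at 49.4, 48.8 and 46.2 CPM against 31.5, 30.9 and 21 CPM (log2 fold change -0.79, SE 0.131, adjusted p = 2.09e-04 by edgeR). Per kb of exon, Kif26b was the higher of the pair in si-Rbm22 too (1.89 against 0.461 CPM per kb). An antisense gene overlaps 909 exon bases of Kif26b.

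Kif2a, a depolymerase used in neurons and at spindle poles, was at 44.8, 48.3 and 44.4 CPM in the si-Control-labelled libraries and at 50.9, 46.7 and 59.6 CPM in si-Rbm22. Its groups overlapped, and the log2 fold change of 0.19 had an adjusted p of 0.049 by edgeR. Kif2a was thus at the limit of the test, whereas its mitotic paralogue Kif2c fell by 1.27, and 1229 of its exon bases overlap Dimt1. When any 1 library was left out, Kif2a or Kif21a, or both, no longer passed, which left 1 to 2 rises among the other kinesins. Kif28 had 13, 0 and 6 reads in si-Rbm22 and none in the si-Control-labelled libraries, and was not tested.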

How the data were processed

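RNA from 6 cultures was sequenced (3 per group, groups from the sample titles). The authors deposited raw read counts per Ensembl gene, made, per the submitters' processing notes, with HISAT2, HTSeq, fastp and DESeq2 named as tools and GRCm38 as the build. Which annotation release and strand setting were used is not given in the sources used here. Of 18951 gene identifiers, 18856 matched GENCODE M21, from which symbols, exon lengths and overlaps were taken.

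Counts were tested with edgeR 4.0.16 in R 4.3.3 (TMM, filterByExpr, robust quasi-likelihood fit, group as the only term), with Benjamini-Hochberg adjustment over 14621 genes. The SE is taken as the size of the log2 fold change over the root of F. A group without reads was set at 3 counts, 0.028 CPM for si-Control and 0.0272 CPM for si-Rbm22. Intervals are exact 95% conditional intervals, and like the floors they cover counting error only. On simulated data with 200 of 12886 genes changed, 85.1% of 1.5-fold, 94.0% of 2-fold and 100% of 4-fold changes were recovered. The simulation changed few genes, as many up as down, and only genes already read in si-Control. In the comparison here 82% of genes passed, so these rates do not carry over to it.

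The members, role lists and other lists were chosen with earlier results of these data known. Values per library were given, by rule, for the 4 members of each role with the smallest p in each direction, the member with the most reads per kb, members without reads in a group and 3 genes per direction of each other list. Other genes named were chosen after their values were seen. Alternatives were another scaling, other filters on low counts, DESeq2 1.42.0, a replicate block, a stricter threshold, other role assignments, and leaving out each library. No pair of replicates agreed within sampling noise, and each library counted as 1 sample.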

Additional observations from a re-analysis of the deposited data

How the results depend on the processing

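DESeq2 and edgeR with relative log expression scaling kept the direction and the call of all 37 tested kinesins, and no kinesin changed direction under any alternative run. Without a filter on low counts, and at an adjusted p under 0.01, Kif21a and Kif2a no longer passed, which left 1 rise among the other kinesins at the stricter threshold. Leaving out 1 library in turn gave 1 to 2 rises there, with 1 when any si-Control-labelled library or si-Rbm22 replicate 1 was left out, and kept all 12 mitotic falls and the 6 rises and 4 falls of transport kinesins. The mitotic summed ratio then ranged from 0.471 to 0.512, and the transport ratio from 1.72 to 1.80.

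A filter of 10 CPM in 3 libraries removed low genes, leaving 2 transport falls, 0 ciliary rises, 0 rises in intraflagellar transport and 0 in the hedgehog list. A filter of 1 CPM in each library, added after seeing the data, also left 0 ciliary rises, and counting Kifc5b as mitotic was added in the same way. With Kif3a, Kif3b and Kif3c counted as transport kinesins, transport falls were 7 and ciliary falls 3, and the summed ratios were 1.55 and 0.496. With Kif2a counted as mitotic, that group had 1 rise. Without length correction the shares of Kif5a, Kif5b and Kif5c in the si-Control-labelled libraries were 3.04%, 84.8% and 12.2%. Those of Kif1b and Kif1c were 34.8% and 65.2%, and 30.3% and 64.9% in si-Rbm22. Kif3b and Kif3c had 50.3% and 49.7%, and 71.0% and 29.0% in si-Rbm22.

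Replicate numbers did not pair the samples: deviations of same-numbered libraries correlated at -0.016, 0.007 and 0.008. With the replicate block 81.7% of genes passed instead of 82%, and Kif2a was the one kinesin whose call was lost (adjusted p = 0.0505 by edgeR). The 3 si-Control-labelled libraries are the whole control group, so no comparison could be run without them. Depth limits Kif17, Kif19a, Kif27 and Kif28, where 3 reads in a library correspond to 0.0799 to 0.0864 CPM.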

Other observations

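Stard9, a large kinesin of centrioles and lysosomes whose symbol the naming rule leaves out, was at 69.4, 71.0 and 70.6 CPM in the si-Control-labelled libraries and at 22.7, 22.8 and 19.8 CPM in si-Rbm22. It fell by 1.69 on the log2 scale (SE 0.0725, adjusted p = 4.02e-11 by edgeR), beside a log2 fold change of -1.64 for Kif14, the largest fall of a mitotic kinesin.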
